A study of Mus musculus with 8 samples.

Results

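The 42 genes described here encode the machinery of DNA replication and of the cell division cycle, and were chosen by name as a gene module, by a rule that uses no threshold on measured values. All 42 were found among the 54146 genes with values in the RNA-seq libraries, and all 42 were among the 14791 genes with enough counts to be tested. They were grouped by role into 12 genes of origin licensing and the replication fork, 3 of nucleotide supply, 5 cyclins of the A, B and E classes, 6 D cyclins and cyclin-dependent kinases (CDKs), 3 CDK inhibitors, 6 regulators of transcription and 7 genes of mitosis and chromosome structure. The question was whether either of 2 lineage-specifying transcription factors, T-bet or GATA3, changed the expression of this machinery in a dividing T cell line.

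EL4 is a T lymphoma line of the mouse, and it expresses endogenous Gata3. Of the 4 retrovirally transduced lines, GFP + Plum carried only control fluorescent proteins, T-bet + Plum carried FLAG-T-bet, GFP + GATA3 carried HA-GATA3, and T-bet + GATA3 carried both factors. For 4 h before harvest every line received ionomycin at 1 μM together with the phorbol ester PMA at 50 ng/ml, which mimic T cell receptor signalling, and unstimulated cells were not analysed here. There were 2 libraries per line, 8 in all. This is fewer than the number of replicates the study gives for its RNA-seq comparison, and further replicates were not analysed here. The factors were introduced into an established tumour line and each combination was represented by a single line, so the effect of a factor and any other difference between the lines cannot be told apart. By the study's definition, biological replicates were separate harvests of a line made on different days, although the sample descriptions do not give the day of a library. The p-values therefore measure the spread between harvests of single lines.

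A dividing cell licenses its replication origins in G1 by loading the MCM helicase, duplicates its DNA in S phase, and separates the chromosomes in mitosis. Cyclins bound to CDKs drive these steps, CDK inhibitors restrain them, and the RB proteins hold back E2F-dependent transcription of replication genes until D cyclins act with Cdk4 and Cdk6. Mitotic genes are transcribed later, in G2, under control of the DREAM and MuvB complexes, Mybl2 and Foxm1. In T cells, activation raises Myc and the D cyclins before the first division. In RNA from whole cultures, fewer cells in a given phase and less RNA per cell cannot be told apart.

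The total per library lay between 8038284 and 16003190 estimated counts, and the T-bet + Plum replicate 1 library was the smallest. In CPM (counts scaled to a common library size), 3 counts were worth between 0.187 and 0.373 by the library totals alone. This limit is set by counting error only. The CPM values of genes used totals scaled further by TMM, so the limit holds for them only approximately. Tbx21, which encodes T-bet, was at 3.59 and 1.78 CPM in GFP + Plum, 2.01 and 2.22 in GFP + GATA3, 129 and 159 in T-bet + Plum, and 135 and 160 in T-bet + GATA3. Gata3 was at 39.8 and 53.3 CPM in GFP + Plum, 25.8 and 34.9 in T-bet + Plum, 283 and 326 in GFP + GATA3, and 204 and 165 in T-bet + GATA3. Both factors thus followed the labels in every library, although the introduced and the endogenous transcripts were not separated. Gata3 was lower in both FLAG-T-bet libraries than in both others, with and without HA-GATA3. Its level was therefore not the same within a GATA3 state. The T cell genes Cd3d, Cd3e, Cd3g, Thy1, Ptprc and Trbc2 were present, whereas Cd247 reached at most 0.511 TPM, a unit that also accounts for transcript length. Markers of B cells, myeloid, epithelial and stromal cells summed to between 0.841 and 7.69 TPM, with Epcam and Cdh1 listed at 0.

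Expression of FLAG-T-bet was accompanied by lower levels of much of the module, and the largest decreases were those of mitotic genes. With the GATA3 states given equal weight (4 libraries with FLAG-T-bet against 4 without), 18 of the 42 genes fell and 2 rose at an FDR of at most 0.05 in edgeR's quasi-likelihood test. Among all genes tested, 6.61% fell and 8.55% rose, and 15.2% were called in either direction. The genes that fell included the proliferation marker Mki67, the topoisomerase gene Top2a, the mitotic kinase genes Plk1 and Aurka, the A and B cyclins and Cdk1. Those that rose were Ccnd2 and Myc. The log2 fold change (FC) was below 0 for 40 of the 42 genes (48% of all genes), the exceptions being Ccnd2 and Myc, and an unadjusted p below 0.05 was found for 30 of the 42 (29.2% of all genes). The median was -0.60, against 0.017 over all genes tested. With HA-GATA3, compared in the same way, the median was 0.03, and it ran from -0.19 without T-bet + GATA3 replicate 2 to 0.18 without GFP + Plum replicate 2. Here edgeR called 0 of the 42 genes, against 0.0608% of all genes tested, and DESeq2 called 1, against 0.561% (83 of 14791 genes). An unadjusted p below 0.05 was found for 1 of the 42, against 4.96% of all genes, and for 7 without T-bet + GATA3 replicate 1, against 4.95%.

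**Figure D1:**
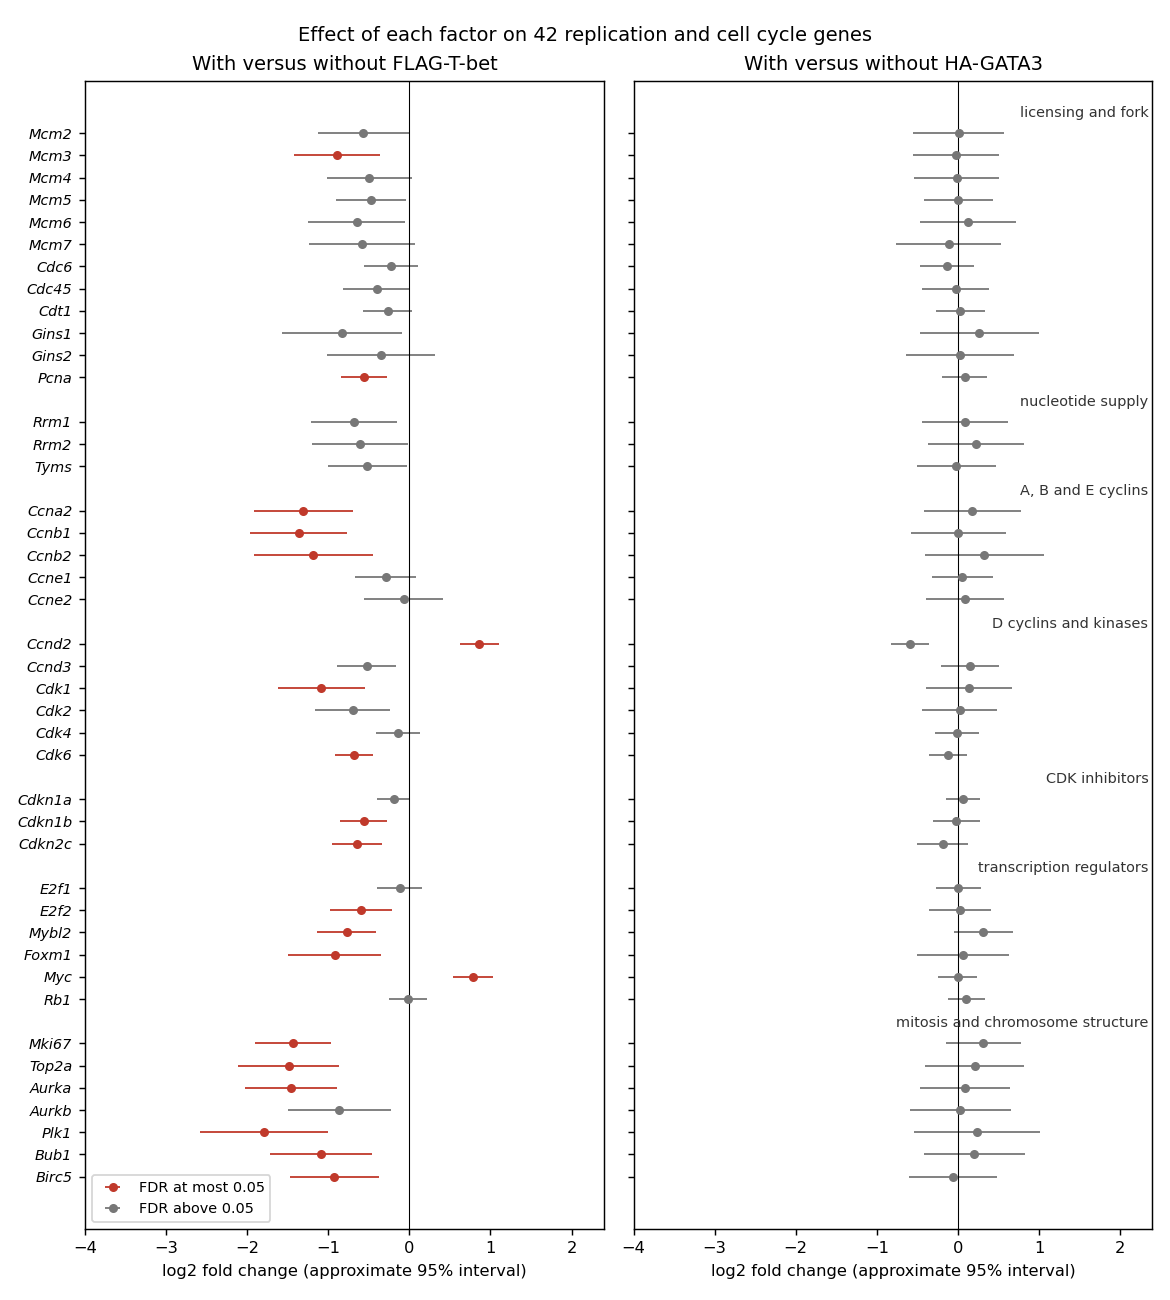
The log2 FC of each of the 42 genes with its approximate 95% interval is shown for FLAG-T-bet (left, 4 libraries with against 4 without) and HA-GATA3 (right, likewise), with genes ordered by role and red marking an FDR of at most 0.05. With FLAG-T-bet 40 points lie below 0, whereas with HA-GATA3 the points lie between -0.59 and 0.33 and none is red.

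The number of genes called with FLAG-T-bet depended on single libraries. Listed here are the fits in which it moved furthest, and it moved less when any of the other libraries was left out. It was 13 without T-bet + Plum replicate 1, 6 without T-bet + Plum replicate 2, 12 without GFP + GATA3 replicate 1, 11 without GFP + GATA3 replicate 2, and 31 without T-bet + GATA3 replicate 2. The share of all genes called in these fits was 9.28%, 8.12%, 9.01%, 7.82% and 13.5%, in this order. The count of the module and this share both fell in the first 4 fits, whereas without T-bet + GATA3 replicate 2 the count rose and the share fell. Ccnd2, Myc, Cdk6, Mki67, Top2a and Aurka were called in each of these fits and when any other library was left out. Of the 8 fits with a library left out, E2f2 was called in 1, Mcm3 in 2, Foxm1, Ccnb2 and Birc5 in 3, Pcna and Bub1 in 4, Cdkn1b and Cdkn2c in 5, Cdk1 and Mybl2 in 6, and Plk1, Ccnb1 and Ccna2 in 7. The study's own condition on size, a log2 FC above 1.5, was met by 4.5% of all genes and by 1 of the 42, Plk1. Counted by level alone, 19 genes were lower in every FLAG-T-bet library than in every library without it (10.2% of all genes tested) and 1, Myc, was higher in every one (12.5% of all genes).

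The genes of mitosis and chromosome structure showed the lowest values. All 7 were lower in each FLAG-T-bet library than in each of the other libraries, as were 10.2% of all genes. Of the 7, 6 passed the test, against 6.61% of all genes called lower. Mki67 (ENSMUSG00000031004.8, chromosome 7 of GRCm38, 135689784 to 135716361), which encodes the Ki-67 protein that coats mitotic chromosomes, was at 212 and 273 CPM in GFP + Plum, 276 and 275 in GFP + GATA3, 93.6 and 70.6 in T-bet + Plum, and 76.8 and 146 in T-bet + GATA3. The highest FLAG-T-bet library therefore lay well under the lowest library without it. The log2 FC was -1.43 (SE 0.20, FDR = 0.0027), and leaving out single libraries gave values between -1.74 and -1.26. Top2a (ENSMUSG00000020914.17, chromosome 11, 98992943 to 99024189), which encodes the topoisomerase that disentangles sister chromatids, was at 579 and 789 CPM in GFP + Plum and 674 and 696 in GFP + GATA3. It was at 247 and 175 CPM in T-bet + Plum and 161 and 400 in T-bet + GATA3, the last being the FLAG-T-bet library nearest to the others. Its log2 FC was -1.49 (SE 0.27, FDR = 0.0085).

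Plk1 (ENSMUSG00000030867.7, chromosome 7, 122159439 to 122169873), a kinase of mitotic entry and exit, was at 35.3 and 60.2 CPM in GFP + Plum, 46.6 and 47.2 in GFP + GATA3, 13.6 and 9.71 in T-bet + Plum, and 7.24 and 24.3 in T-bet + GATA3. Its log2 FC of -1.80 (SE 0.34, FDR = 0.0108) was the lowest of the module. It ran from -2.41 without T-bet + GATA3 replicate 2 to -1.52 without T-bet + GATA3 replicate 1, and the call was lost without T-bet + Plum replicate 2 (-1.68, FDR = 0.0624). Aurka (ENSMUSG00000027496.15, chromosome 2, 172356190 to 172370535), a kinase of the spindle poles, was at 31.9 and 47.1 CPM in GFP + Plum, 33.0 and 38.4 in GFP + GATA3, 11.6 and 12.8 in T-bet + Plum, and 9.19 and 20.9 in T-bet + GATA3, and fell by 1.46 on the log2 scale (SE 0.25, FDR = 0.00632). Bub1, a kinase of the spindle checkpoint, had the lowest mean TPM of the group. It was at 36.0 and 44.5 CPM in GFP + Plum, 48.4 and 37.5 in GFP + GATA3, 22.2 and 13.3 in T-bet + Plum, and 12.8 and 30.1 in T-bet + GATA3 (log2 FC -1.09, SE 0.27, FDR = 0.0323). Birc5 encodes survivin, a subunit of the chromosomal passenger complex. It was at 86.3 and 105 CPM in GFP + Plum, 82.9 and 87.4 in GFP + GATA3, 59.0 and 35.0 in T-bet + Plum, and 31.4 and 64.0 in T-bet + GATA3 (log2 FC -0.93, SE 0.24, FDR = 0.0354). Aurkb, the kinase of the same complex, had a log2 FC of -0.86 (SE 0.27) and did not pass the test (FDR = 0.073), although its 4 FLAG-T-bet libraries were also the 4 lowest. In each of these genes T-bet + GATA3 replicate 2 was higher than replicate 1 of the same line.

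**Figure D2:**
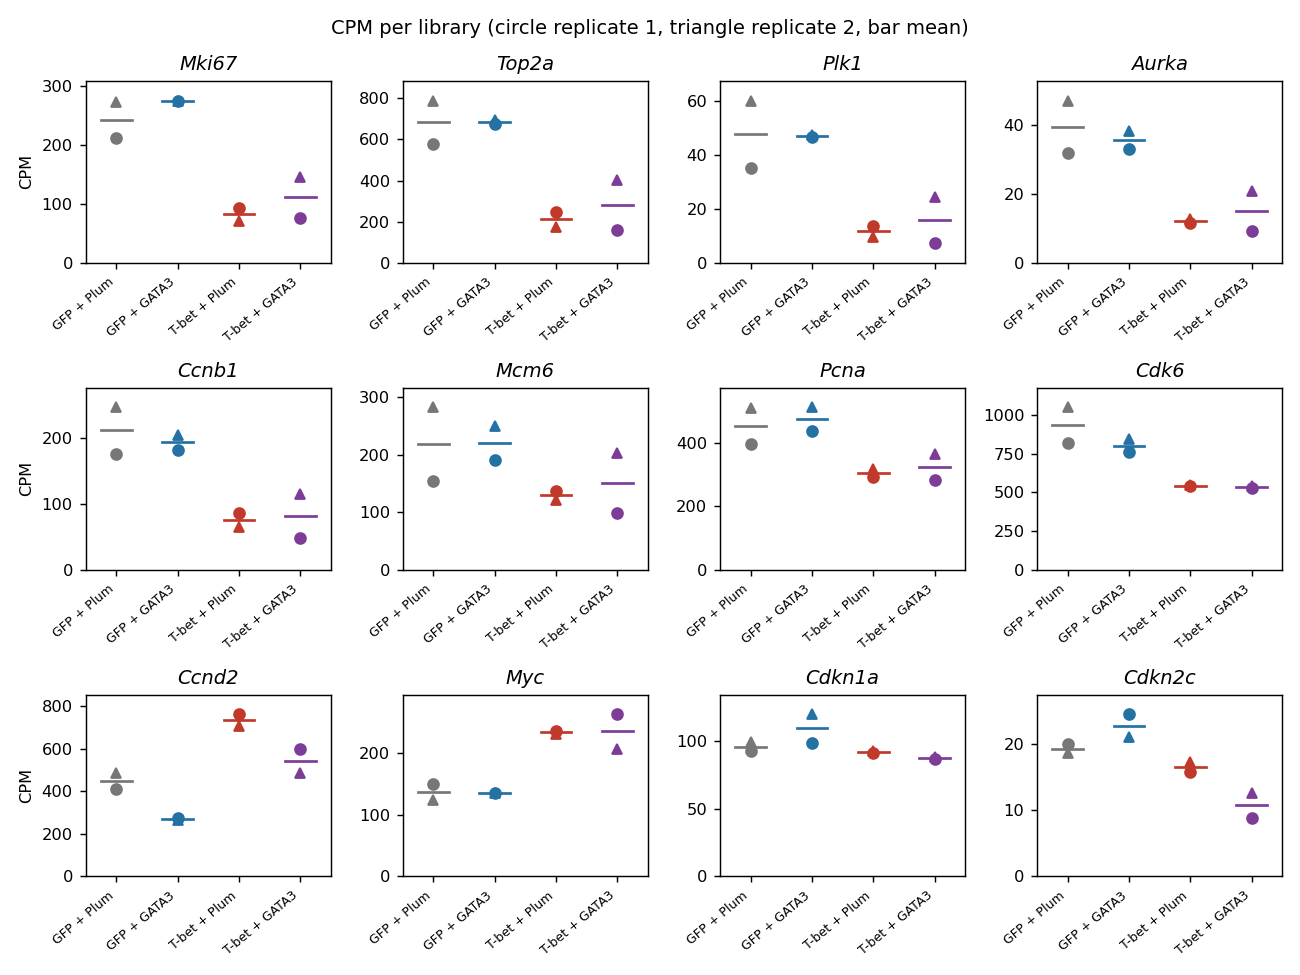
The level of 12 genes of the module is plotted in CPM for each library, with circles for replicate 1, triangles for replicate 2 and a bar at the mean of each line. Mki67, Top2a, Plk1, Aurka, Ccnb1, Pcna and Cdk6 are lower in all 4 FLAG-T-bet libraries, Mcm6 overlaps, Ccnd2 is higher with FLAG-T-bet within each GATA3 state, and Myc is higher in all 4.

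Since these genes moved together, the 250 bases before the start of transcription were searched in the promoters given by RefSeq on GRCm38.p6, which held an entry for 32 of the 42 genes. Exact matches on both strands were counted to the CCAAT box (CCAAT), which is bound by NF-Y, to the cell cycle homology region of late cell cycle genes (CHR, TTTGAA or TTCGAA) and to E2F words (TTTCGCGC, TTTGGCGC or TTTCCCGC). The CCAAT letters were present in 20 of the 32 promoters (62.5%), in 5 of 6 promoters of the mitosis group (83.3%), in 7 of 9 of the licensing and fork group (77.8%), in 12 of the 16 available promoters of genes that fell with FLAG-T-bet (75.0%), in 8 of the 16 of genes not called (50.0%), and in 33.8% of all 32851 promoters of this length. CHR letters were found in 7 of the 32 promoters (21.9%) and in 17.1% of all promoters, and at the same share (33.3%) in the mitosis group (2 of 6), the licensing and fork group (3 of 9) and the A, B and E cyclins (1 of 3). E2F words were in 4 of 9 promoters of the licensing and fork group (44.4%) and in 1.53% of all promoters, but in 1 of the 16 promoters of genes that fell (6.25%) and 5 of the 16 of genes not called (31.2%). T-box words (GGTGTGA or GGTGTTA) were in 0 of the 32 promoters and in 4.62% of all promoters. GATA words (AGATAA or AGATAG, each also with T in place of its leading A) were in 5 of the 32 (15.6%) and in 26.5% of all, and the E-box CACGTG was in 3 of the 32 (9.38%) and in 6.02% of all. These counts describe letters in a short window and carry no test.

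The promoters of 4 genes that fell with FLAG-T-bet and of Mcm6, which was not called, are shown because they carry these letters in different combinations. Each is printed from 5′ to 3′ towards the start of transcription, on the minus strand, with matches to CCAAT, CHR and E2F words on either strand in capitals (ATTGG and TTCAAA are CCAAT and TTTGAA read on the other strand). The promoter of Top2a (chr11:99024190-99024439) held 6 CCAAT and 4 CHR matches, that of Mki67 (chr7:135716380-135716629) 3 and 2, that of Ccnb2 (chr9:70421555-70421804) 3 and 1, and that of Aurka (chr2:172370571-172370820) 2 and 0. None of these 4 held an E2F word. That of Mcm6 (chr1:128359706-128359955) held 3 E2F matches, of which 2 overlap on opposite strands, and 2 CCAAT matches, with 0 CHR matches.
Top2a: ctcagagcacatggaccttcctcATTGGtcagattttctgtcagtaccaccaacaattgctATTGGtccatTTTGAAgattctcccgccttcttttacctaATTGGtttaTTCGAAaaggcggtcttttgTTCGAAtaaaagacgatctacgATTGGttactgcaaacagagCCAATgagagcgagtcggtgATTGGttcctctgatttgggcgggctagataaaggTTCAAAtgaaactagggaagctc
Mki67: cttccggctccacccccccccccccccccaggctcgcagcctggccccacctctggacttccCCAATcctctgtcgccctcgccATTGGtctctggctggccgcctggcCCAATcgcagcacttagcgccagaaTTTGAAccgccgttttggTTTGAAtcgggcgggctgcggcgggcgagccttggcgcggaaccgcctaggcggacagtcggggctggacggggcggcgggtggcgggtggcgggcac
Ccnb2: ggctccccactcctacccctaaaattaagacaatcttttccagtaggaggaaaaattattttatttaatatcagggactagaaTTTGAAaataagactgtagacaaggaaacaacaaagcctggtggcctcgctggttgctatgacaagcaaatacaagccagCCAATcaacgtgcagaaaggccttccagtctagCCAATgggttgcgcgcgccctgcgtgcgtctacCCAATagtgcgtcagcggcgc
Aurka: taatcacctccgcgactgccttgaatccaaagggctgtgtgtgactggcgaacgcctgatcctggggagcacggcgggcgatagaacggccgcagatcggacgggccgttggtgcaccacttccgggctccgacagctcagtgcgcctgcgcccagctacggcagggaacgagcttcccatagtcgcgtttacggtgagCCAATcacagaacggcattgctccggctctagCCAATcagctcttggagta
Mcm6: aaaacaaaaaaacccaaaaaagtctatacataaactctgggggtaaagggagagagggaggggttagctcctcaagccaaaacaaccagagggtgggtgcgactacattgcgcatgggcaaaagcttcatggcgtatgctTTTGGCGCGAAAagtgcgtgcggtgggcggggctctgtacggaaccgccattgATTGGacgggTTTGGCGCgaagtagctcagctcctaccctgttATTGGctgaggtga

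Of the 12 origin licensing and fork genes, 2 passed the test, both of them lower, against 6.61% of all genes called lower. The log2 FC was below 0 for all 12, with a median of -0.53, and libraries with and without FLAG-T-bet overlapped for 10. The 2 without overlap were lower with FLAG-T-bet. Of all genes, 10.2% were lower and 12.5% higher without overlap, so most genes overlapped as well. For the genes of mitosis and chromosome structure the median was -1.43, and the difference between the groups was not tested. Pcna (ENSMUSG00000027342.14, chromosome 2, 132249162 to 132253314), which encodes the sliding clamp of the replicative polymerases and had the highest mean TPM of the group, was at 396 and 508 CPM in GFP + Plum, 438 and 512 in GFP + GATA3, 291 and 316 in T-bet + Plum, and 284 and 365 in T-bet + GATA3. The 4 FLAG-T-bet libraries were the 4 lowest (log2 FC -0.56, SE 0.12, FDR = 0.0194). Mcm3 (ENSMUSG00000041859.10, chromosome 1, 20802968 to 20820312), a subunit of the helicase, was at 107 and 200 CPM in GFP + Plum, 120 and 159 in GFP + GATA3, 82.4 and 70.6 in T-bet + Plum, and 61.1 and 101 in T-bet + GATA3. Its groups did not overlap either, and its log2 FC was -0.89 (SE 0.23, FDR = 0.0369). The other helicase subunits Mcm2, Mcm4, Mcm5, Mcm6 and Mcm7 had log2 FCs between -0.65 and -0.47 and FDRs between 0.137 and 0.215, and the FLAG-T-bet libraries overlapped the others in each.

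Gins1, a subunit of the GINS complex that completes the active helicase, had the lowest mean TPM of the group. It was at 9.72 and 14.5 CPM in GFP + Plum, 11.7 and 13.3 in GFP + GATA3, 8.46 and 3.56 in T-bet + Plum, and 5.19 and 10.8 in T-bet + GATA3, and did not pass the test (log2 FC -0.83, SE 0.32, FDR = 0.126). The loading factors Cdc6 and Cdt1 had the log2 FCs nearest to 0 in the group, at -0.23 (FDR = 0.346) and -0.27 (FDR = 0.227). Cdc45 and Gins2 were at -0.41 and -0.35, and neither was called. The 95% intervals ran from -0.56 to 0.10 for Cdc6 and from -0.57 to 0.04 for Cdt1.

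Nucleotide supply was represented by Rrm1 and Rrm2, the subunits of ribonucleotide reductase, and by Tyms, thymidylate synthase. None of the 3 passed the test, and the unadjusted p was below 0.05 for each, against 29.2% of all genes. Rrm2 was at 190 and 321 CPM in GFP + Plum, 211 and 326 in GFP + GATA3, 168 and 134 in T-bet + Plum, and 133 and 256 in T-bet + GATA3, so that T-bet + GATA3 replicate 2 exceeded replicate 1 of both lines without FLAG-T-bet (log2 FC -0.61, SE 0.26, FDR = 0.157). Tyms was at 39.5 and 59.1 CPM in GFP + Plum, 44.6 and 56.2 in GFP + GATA3, 40.4 and 31.2 in T-bet + Plum, and 24.2 and 43.1 in T-bet + GATA3 (log2 FC -0.52, SE 0.21, FDR = 0.147). Its FLAG-T-bet libraries overlapped the others. For Rrm1 the log2 FC was -0.68 (SE 0.23, FDR = 0.0879).

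The mitotic and the helicase genes were compared within libraries, on TPM summed over the genes of each group. The 7 mitosis genes summed to 444 and 510 TPM in GFP + Plum, 485 and 497 in GFP + GATA3, 211 and 140 in T-bet + Plum, and 114 and 299 in T-bet + GATA3. Mcm2 to Mcm7 summed to 310 and 468 TPM in GFP + Plum, 348 and 458 in GFP + GATA3, 277 and 223 in T-bet + Plum, and 157 and 342 in T-bet + GATA3. The mitotic sum separated the libraries by FLAG-T-bet, whereas the helicase sum did not. The ratio of the sums was 1.43 and 1.09 in GFP + Plum, 1.39 and 1.08 in GFP + GATA3, 0.765 and 0.628 in T-bet + Plum, and 0.725 and 0.874 in T-bet + GATA3. The highest ratio with FLAG-T-bet, 0.874, was thus below the lowest without it, 1.08, and no test was made on it. Both sums also differed between replicates of a line. The median log2 difference over the module, replicate 2 minus replicate 1, was 0.44 in GFP + Plum, 0.20 in GFP + GATA3, -0.28 in T-bet + Plum and 0.77 in T-bet + GATA3, the last being larger in size than the median log2 FC with FLAG-T-bet.

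**Figure D3:**
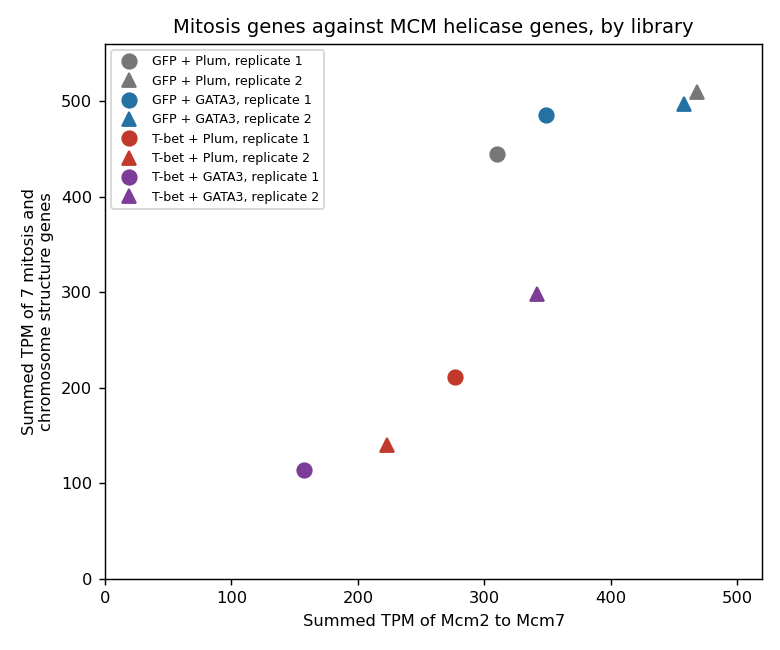
The summed TPM of the 7 mitosis and chromosome structure genes (vertical axis) is plotted against the summed TPM of Mcm2 to Mcm7 (horizontal axis), with 1 point per library. The 4 libraries without FLAG-T-bet lie at 444 TPM or more on the vertical axis and the 4 with it at 299 or less, whereas on the horizontal axis the T-bet + GATA3 replicate 2 library, at 342 TPM, lies to the right of GFP + Plum replicate 1, at 310 TPM.

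Among the A, B and E cyclins, those of late phases fell with FLAG-T-bet, and the E cyclins, which act at the entry into S phase, were not called. Ccnb1 (ENSMUSG00000041431.16, chromosome 13, 100778650 to 100786570), the main mitotic cyclin, was at 177 and 248 CPM in GFP + Plum, 182 and 206 in GFP + GATA3, 86.0 and 64.2 in T-bet + Plum, and 48.3 and 116 in T-bet + GATA3, with no overlap between libraries with and without the factor. It fell by 1.37 on the log2 scale (SE 0.26, FDR = 0.0105). Ccna2, the cyclin of S phase and G2, was at 55.9 and 78.1 CPM in GFP + Plum, 62.8 and 69.7 in GFP + GATA3, 28.0 and 19.8 in T-bet + Plum, and 17.7 and 42.8 in T-bet + GATA3 (log2 FC -1.31, SE 0.26, FDR = 0.0133). For Ccnb2, the other mitotic cyclin, the values were 24.3 and 41.7 CPM in GFP + Plum, 29.7 and 39.1 in GFP + GATA3, 12.7 and 11.5 in T-bet + Plum, and 9.08 and 26.7 in T-bet + GATA3, so that 1 FLAG-T-bet library exceeded 1 control library (log2 FC -1.19, SE 0.32, FDR = 0.0417). Ccne2, an E cyclin and the lowest of the group by TPM, was at 9.96 and 13.8 CPM in GFP + Plum, 8.52 and 11.7 in GFP + GATA3, 9.58 and 8.62 in T-bet + Plum, and 8.87 and 15.0 in T-bet + GATA3. Its log2 FC of -0.07 (SE 0.21, FDR = 0.864) was, after that of Rb1, the nearest to 0 in the module, and turned positive when any of 3 libraries was left out. Ccne1 had a log2 FC of -0.29 (FDR = 0.286).

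Cdk1, the partner of the A and B cyclins, was at 196 and 254 CPM in GFP + Plum, 219 and 238 in GFP + GATA3, 116 and 79.9 in T-bet + Plum, and 74.9 and 158 in T-bet + GATA3. The groups did not overlap, and it fell by 1.09 on the log2 scale (SE 0.23, FDR = 0.0171). Cdk2, the partner of the E cyclins, was at 45.7 and 62.4 CPM in GFP + Plum, 48.8 and 61.4 in GFP + GATA3, 39.4 and 27.8 in T-bet + Plum, and 25.2 and 41.8 in T-bet + GATA3, and lay just outside the threshold (log2 FC -0.70, SE 0.20, FDR = 0.0505). Cdk4, a partner of the D cyclins with the highest mean TPM of its group, was at 207 and 224 CPM in GFP + Plum, 203 and 211 in GFP + GATA3, 213 and 166 in T-bet + Plum, and 170 and 221 in T-bet + GATA3. Its libraries overlapped throughout, and the 95% interval of its log2 FC of -0.14 ran from -0.41 to 0.14 (FDR = 0.503).

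Cdk6 (ENSMUSG00000040274.11, chromosome 5, 3341485 to 3531008), the other kinase of the D cyclins, did not follow Cdk4. It was at 820 and 1050 CPM in GFP + Plum, 759 and 846 in GFP + GATA3, 539 and 546 in T-bet + Plum, and 530 and 539 in T-bet + GATA3. The replicates of each FLAG-T-bet line lay close together, including T-bet + GATA3, whose replicates stood apart in the mitotic genes. The log2 FC was -0.69 (SE 0.10, FDR = 0.00329), and leaving out single libraries gave -0.77 to -0.59. Its transcripts were examined because of this difference and were chosen after the values of the gene had been seen. The transcript of 2470 bases (ENSMUST00000042410.4, 7 exons) was at 71.4 to 111 TPM in the libraries without FLAG-T-bet and at 18.1 to 31.9 TPM in those with it. The transcript of 11525 bases (ENSMUST00000165117.7, 8 exons) was at 59.6 to 70.2 TPM and 39.4 to 44.3 TPM, respectively. Their coding sequences are of the same length, 978 bases. The shorter transcript made up 51.0% to 55.8% of the TPM of the gene without FLAG-T-bet and 29.5% to 39.0% with it, so that the libraries did not overlap. These values rest on the division by kallisto of reads that both transcripts share, and no test was made on them.

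**Figure D4:**
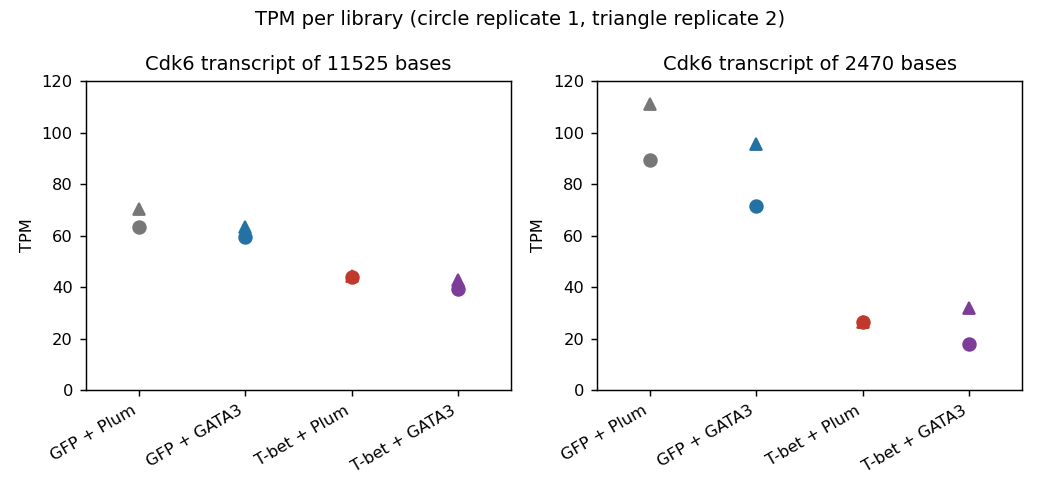
The TPM of the 2 main Cdk6 transcripts is plotted for each library, with circles for replicate 1 and triangles for replicate 2. Both are lower in the 4 FLAG-T-bet libraries, the 2470-base transcript at 18.1 to 31.9 TPM against 71.4 to 111, and the 11525-base transcript at 39.4 to 44.3 TPM against 59.6 to 70.2.

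Ccnd2 and Myc rose. Ccnd2 (ENSMUSG00000000184.12, chromosome 6, 127125162 to 127152193), a D cyclin of G1, was at 408 and 486 CPM in GFP + Plum, 274 and 264 in GFP + GATA3, 762 and 708 in T-bet + Plum, and 598 and 486 in T-bet + GATA3. Within each GATA3 state both FLAG-T-bet libraries were higher than both libraries without it. The log2 FC was 0.86 (SE 0.10, FDR = 0.00121), 0.72 without HA-GATA3 and 1.01 with it. Myc (ENSMUSG00000022346.15, chromosome 15, 61985391 to 61990374), which encodes a transcription factor of growth and cell cycle entry, was at 150 and 123 CPM in GFP + Plum, 135 and 136 in GFP + GATA3, 236 and 231 in T-bet + Plum, and 263 and 207 in T-bet + GATA3. It was higher in each FLAG-T-bet library than in any other library (log2 FC 0.79, SE 0.11, FDR = 0.00216). The other D cyclin gene of the module, Ccnd3, had a log2 FC in the opposite direction, -0.53 (SE 0.16), and did not pass the test (FDR = 0.0571).

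Of the 3 CDK inhibitors of the module, 0 were called higher with FLAG-T-bet, against 8.55% of all genes, and 2 were called lower, against 6.61%. Cdkn1a, which encodes p21, was at 92.8 and 99.1 CPM in GFP + Plum, 99.0 and 120 in GFP + GATA3, 91.1 and 92.4 in T-bet + Plum, and 87.0 and 88.5 in T-bet + GATA3. The 4 FLAG-T-bet libraries were the 4 lowest by a narrow margin, the test was not passed (log2 FC -0.19, SE 0.09, FDR = 0.197), and the upper bound of the 95% interval was 0.01. Cdkn1b (ENSMUSG00000003031.14, chromosome 6, 134920401 to 134925513), which encodes p27, was at 58.6 and 56.4 CPM in GFP + Plum, 68.0 and 57.4 in GFP + GATA3, 45.4 and 40.5 in T-bet + Plum, and 31.9 and 44.8 in T-bet + GATA3, and fell by 0.56 on the log2 scale (SE 0.13, FDR = 0.021). Cdkn2c (ENSMUSG00000028551.14, chromosome 4, 109660876 to 109667189), which encodes the Cdk4 and Cdk6 inhibitor p18, was at 19.9 and 18.6 CPM in GFP + Plum, 24.5 and 21.1 in GFP + GATA3, 15.8 and 17.2 in T-bet + Plum, and 8.87 and 12.6 in T-bet + GATA3 (log2 FC -0.65, SE 0.14, FDR = 0.016). The line with both factors was the lowest, and without HA-GATA3 the log2 FC was -0.22 (FDR = 0.596).

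Of the regulators of transcription, Mybl2, Foxm1 and E2f2 fell and E2f1 and Rb1 were not called. For E2f2 and Foxm1 most single libraries decided the call. That of E2f2 was kept without T-bet + GATA3 replicate 2 and lost without any other library, and that of Foxm1 was kept without GFP + Plum replicate 1 or either T-bet + GATA3 library and lost without any of the others, with FDRs of up to 0.161 and 0.158. Mybl2, the B-MYB subunit that activates G2 genes, was at 58.0 and 82.1 CPM in GFP + Plum, 70.4 and 89.2 in GFP + GATA3, 39.3 and 36.0 in T-bet + Plum, and 42.4 and 59.2 in T-bet + GATA3 (log2 FC -0.77, SE 0.16, FDR = 0.0142). Foxm1, a forkhead factor of the same genes, was at 35.7 and 48.5 CPM in GFP + Plum, 38.2 and 50.3 in GFP + GATA3, 24.9 and 20.2 in T-bet + Plum, and 13.9 and 31.9 in T-bet + GATA3 (log2 FC -0.92, SE 0.25, FDR = 0.0424). The groups did not overlap for Foxm1, and 1 FLAG-T-bet library exceeded 1 GFP + Plum library for Mybl2. E2f2, an activating E2F at the lowest mean TPM of the module, was at 8.66 and 9.45 CPM in GFP + Plum, 7.47 and 7.80 in GFP + GATA3, 5.10 and 4.85 in T-bet + Plum, and 4.97 and 7.12 in T-bet + GATA3. Its FDR of 0.0484 (log2 FC -0.59, SE 0.17) lay just inside the threshold. For E2f1 the log2 FC was -0.12 (95% interval -0.40 to 0.16), and for Rb1, the retinoblastoma gene, -0.02 (-0.25 to 0.21).

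FLAG-T-bet was also compared within each GATA3 state, where 2 libraries stand against 2. T-bet + Plum versus GFP + Plum gave 6 calls among the 42, against 6.2% of all genes. An unadjusted p below 0.05 was found for 22, against 19.4% of all genes. Ccnd2 (log2 FC 0.72, FDR = 0.0263) and Myc (0.78, FDR = 0.0223) rose, and Cdk6 (-0.79, FDR = 0.0182), Mki67 (-1.57, FDR = 0.019), Top2a (-1.70, FDR = 0.0399) and Aurka (-1.69, FDR = 0.0295) fell. The median of the module was -0.66, and it ran from -0.94 without GFP + Plum replicate 1 to -0.36 without GFP + Plum replicate 2. This count was 0 without either T-bet + Plum library, 1 without GFP + Plum replicate 2, 3 without GFP + GATA3 replicate 2, and 14 without either T-bet + GATA3 library. Of all genes, 2.5% and 1.71% were called without T-bet + Plum replicates 1 and 2, 3.43% without GFP + Plum replicate 2, 4.14% without GFP + GATA3 replicate 2, and 6.12% and 6.09% without T-bet + GATA3 replicates 1 and 2. T-bet + GATA3 versus GFP + GATA3 gave 4 calls, against 5.77% of all genes, and 21 of the 42 had an unadjusted p below 0.05, against 19.6% of all genes. Ccnd2 (1.01, FDR = 0.00672) and Myc (0.80, FDR = 0.0202) rose, Cdkn2c (-1.07, FDR = 0.0172) and Mki67 (-1.30, FDR = 0.0363) fell. The median was -0.58, and it was -1.11 without T-bet + GATA3 replicate 2 and -0.26 without T-bet + GATA3 replicate 1. Without either GFP + GATA3 library this count was 0, without T-bet + GATA3 replicate 1 it was 1, and without T-bet + GATA3 replicate 2 it was 16. Of all genes, 1.97% and 1.59% were called without GFP + GATA3 replicates 1 and 2, and 2.79% and 4.58% without T-bet + GATA3 replicates 1 and 2.

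The line with both factors was then compared with the GFP + Plum line. Here 2 of the 42 genes were called, against 4.87% of all genes, and 18 had an unadjusted p below 0.05, against 17.8% of all genes. Myc rose by 0.78 (FDR = 0.024) and Cdk6 fell by 0.81 (FDR = 0.0179), with a median of -0.57 over the module. This median was -1.10 without T-bet + GATA3 replicate 2, -0.25 without T-bet + GATA3 replicate 1 and -0.26 without GFP + Plum replicate 2. The count was 0 without T-bet + GATA3 replicate 1 or GFP + Plum replicate 2, 14 without T-bet + GATA3 replicate 2, and 1 without T-bet + Plum replicate 1 or 2 or GFP + GATA3 replicate 1 or 2. Of all genes, 2.42% were called without T-bet + GATA3 replicate 1, 3.2% without GFP + Plum replicate 2, 3.63% without T-bet + GATA3 replicate 2, and between 3.44% and 3.54% in the last 4 fits. In this comparison Ccnd2 had a log2 FC of 0.28 (SE 0.14, FDR = 0.381).

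Whether the FLAG-T-bet effect differed with the GATA3 state was tested as an interaction. In edgeR and in DESeq2 0 of the 42 genes were called, against 0% and 0.101% of all genes, and 1 had an unadjusted p below 0.05 in each tool, against 2.58% of all genes in edgeR and 1.6% in DESeq2. This was Cdkn2c, with a difference in log2 FC of -0.85 (SE 0.27, 95% interval -1.48 to -0.23, FDR = 1.0). The half-width of the 95% interval of the interaction had a median of 0.97 over the module. Single libraries also moved these values. The median interaction over the 42 genes was 0.21, and it was 0.50 without T-bet + GATA3 replicate 1 and -0.40 without T-bet + GATA3 replicate 2. Without T-bet + GATA3 replicate 1 an unadjusted p below 0.05 was found for 8 of the 42, against 2.72% of all genes, with 0 called, against 0%.

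Averaged over the T-bet states (4 libraries with HA-GATA3 against 4 without), none of the 42 genes separated the HA-GATA3 libraries from the others, as 0.825% of all genes did upwards and 0.798% downwards. The 95% interval of the log2 FC lay within 1 of 0 for 40 of the 42 genes, and its half-width had a median of 0.49. Mki67 had a log2 FC of 0.31 (SE 0.20, FDR = 1.0), Top2a 0.21 (SE 0.27, FDR = 1.0), Pcna 0.08 (SE 0.12, FDR = 1.0) and Cdk1 0.14 (SE 0.23, FDR = 1.0).

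The gene that stood out with HA-GATA3 was Ccnd2, which is also the gene with the smallest p of the module with FLAG-T-bet. Its levels, given above, were lower in both GFP + GATA3 libraries than in both GFP + Plum libraries, and lower in both T-bet + GATA3 than in both T-bet + Plum libraries. The log2 FC was -0.59 (SE 0.10, 95% interval -0.82 to -0.35), and its edgeR FDR over all genes was 0.149. DESeq2 gave an FDR of 0.00029, edgeR with offsets for transcript length 0.0421 and edgeR without a filter on low counts 9.54e-05, whereas leaving out single libraries gave FDRs of 0.0926 to 0.635. The call therefore depended on the method. For HA-GATA3 alone (GFP + GATA3 versus GFP + Plum) and for HA-GATA3 added to FLAG-T-bet, 0 of the 42 genes were called in edgeR, against 0.0203% and 0.0338% of all genes. The number at an unadjusted p below 0.05 was 1 and 2, against 3.7% and 3.78% of all genes. DESeq2 called 1 and 0, against 0.379% and 0.237% of all genes. The 95% interval lay within 1 of 0 for 35 of the 42 genes with HA-GATA3 alone and for 26 with HA-GATA3 added to FLAG-T-bet, where the highest upper bound was 1.66.

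When HA-GATA3 was added to FLAG-T-bet, the log2 FC was above 0 for all 7 genes of mitosis and chromosome structure (median 0.32) and for all 5 cyclins of the A, B and E classes (median 0.37, highest 0.59), none of them called. These values moved with single libraries. The median over the 42 genes was 0.08, and it was 0.43 without T-bet + GATA3 replicate 1 and -0.40 without T-bet + GATA3 replicate 2. An unadjusted p below 0.05 was then found for 12 and 4 of the 42 genes, against 4.03% and 4.85% of all genes, and edgeR called 0 in both fits, against 0.0128% and 0.0381%.

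Further genes of the same processes were counted from lists that hold none of the 42. Of 49 other genes of mitosis, 36 fell with FLAG-T-bet and 0 rose, against 6.61% and 8.55% of all genes. The median log2 FC was -0.94, and 37 were lower in every FLAG-T-bet library, against 10.2% of all genes. They included Hmmr, a spindle protein (-1.65, FDR = 0.003), Cenpf, a kinetochore protein (-1.65, FDR = 0.00556), Ccnf, cyclin F (-1.39, FDR = 0.00563), and Fbxo5, an inhibitor of the anaphase-promoting complex (-0.96, FDR = 0.00512). Of 53 other replication genes, 7 fell and 0 rose with FLAG-T-bet averaged over GATA3 states, against 6.61% and 8.55% of all genes. The median was -0.31, and 12 of the 53 were lower in every FLAG-T-bet library, against 10.2% of all genes. The lowest p was that of Gins3, a further GINS subunit, at 39.7 and 44.3 CPM in GFP + Plum, 49.6 and 53.5 in GFP + GATA3, 25.9 and 23.0 in T-bet + Plum, and 19.6 and 25.6 in T-bet + GATA3 (-0.98, SE 0.12, FDR = 0.00112). Dbf4, the activating subunit of the Cdc7 kinase (-0.76, FDR = 0.0104) and Dnmt1, the maintenance DNA methyltransferase (-0.64, FDR = 0.0328), also fell. With single libraries left out, the log2 FC of Dnmt1 ran from -0.87 to -0.51, and not every such fit kept its call. With HA-GATA3, 0 genes of either list were called by edgeR, against 0.0608% of all genes, and 0 had an unadjusted p below 0.05, against 4.96%.

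Of 44 other genes of cell cycle control, 40 could be tested, 5 rose and 5 fell with FLAG-T-bet, against 8.55% and 6.61% of all genes, and the median was -0.01. Cdkn1c, Cdkn2a, Mycn and Mycl did not pass the filter on low counts. Mxd1 (ENSMUSG00000001156.9, chromosome 6, 86647042 to 86669161), which encodes an antagonist of MYC at shared binding sites, was at 9.78 and 8.88 CPM in GFP + Plum, 7.56 and 8.18 in GFP + GATA3, 31.9 and 28.7 in T-bet + Plum, and 32.1 and 27.8 in T-bet + GATA3, and rose by 1.81 on the log2 scale (SE 0.11, FDR = 4.57e-05). Cdkn2d (ENSMUSG00000096472.2, chromosome 9, 21288410 to 21291407), which encodes the Cdk4 and Cdk6 inhibitor p19, was at 8.35 and 8.06 CPM in GFP + Plum, 10.2 and 8.94 in GFP + GATA3, 1.99 and 1.5 in T-bet + Plum, and 2.60 and 2.39 in T-bet + GATA3. It fell by 2.10 (SE 0.18, FDR = 0.000233), and for both genes the groups were far apart relative to the replicates. Cdkn2b, the p15 inhibitor of the same kinases, lay in the other direction and is named after its values were seen. It was at 29.5 and 54.2 CPM in GFP + Plum, 26.3 and 37.7 in GFP + GATA3, 59.5 and 69.7 in T-bet + Plum, and 34.8 and 68.3 in T-bet + GATA3, with overlap between the groups, and it was not called (log2 FC 0.66, SE 0.26, FDR = 0.136). Sesn2, a stress-induced sestrin (1.13, FDR = 0.00344), and Btg2, an antiproliferative gene (1.06, FDR = 0.00412), also rose. The remaining calls, named after their values were seen, were Rbl2 (0.86), which encodes the RB relative p130, and Atm (0.50), a DNA damage kinase, which rose, and Cdkn3 (-1.03), Mxd3 (-1.25), Lin54 (-0.76), a MuvB subunit, and Mnat1 (-0.42), which fell. With HA-GATA3 edgeR called 0 of the 40, against 0.0608% of all genes, with 1 at an unadjusted p below 0.05, against 4.96%.

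Levels of T cell genes also moved with FLAG-T-bet. Of the 9 T cell markers tested, Cd2, Lck, Trbc2 and Cd3d rose, against 8.55% of all genes. The summed TPM of the T cell markers was 2481 to 3054 without FLAG-T-bet and 3380 to 3966 with it. The 12 markers of other cell types summed to 4.45 to 7.69 TPM without and 0.841 to 1.67 TPM with it. Among them Pdgfra and Lyz2 were called lower, against 6.61% of all genes. The 42 genes summed to between 2911 and 3484 TPM without FLAG-T-bet and between 1485 and 2560 with it. The part of the markers' shift in the values of the 42 genes was not tested.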

How the data were processed

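Polyadenylated RNA from 8 libraries (4 lines, 2 each) was sequenced by the authors, who trimmed reads and ran kallisto on Gencode transcript models (GRCm38; the release is M18 in the file labels but M20 in the study's methods). They deposited, for 136535 transcripts per library, estimated counts (not normalized), TPM (scaled per library) and effective lengths. Versions of these tools are not given in the sources used here.

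Estimated counts and TPM were summed per gene, and the counts were rounded and fitted over all 8 libraries in edgeR 4.0.16 (R 4.3.3) with TMM, filterByExpr, the quasi-likelihood test (4 residual degrees of freedom per gene) and Benjamini-Hochberg adjustment over 14791 genes. CPM used TMM-scaled library sizes, and SEs and 95% intervals are approximate. The threshold for a call was an FDR of 0.05 or less. Named with values in every library were the genes called in any of 8 contrasts, the highest and lowest of each role by mean TPM, the CDK inhibitors and Myc, and from each further list at most the 4 genes with the smallest p. Not every gene so named is reported here. The 42 genes were chosen by name and not by a measured value, but they and the further lists were chosen with earlier results of these data known. Alternatives were DESeq2 1.42.0, library size scaling, transcript length offsets, no filter, at least 10 counts in every library, the libraries of a contrast alone, the replicate block and each library left out. Replicates differed by more than counting noise (chi-square per degree of freedom 9.95 to 30.4). A single data set was simulated for FLAG-T-bet (4 libraries against 4, 14368 genes), with spreads estimated by edgeR. In it 67, 65 and 63 genes were changed by 0.5, 1 and 2 on the log2 scale. Of these edgeR found 11.94%, 50.77% and 84.13%, with 9.615% false calls, and DESeq2 20.9%, 55.38% and 84.13%, with 23.13% false calls. In the data 15.2% of all genes were called, a larger share than was changed in the simulation. These rates therefore cannot be taken as error rates of the calls reported here. Gene positions came from Gencode M21 and promoters from RefSeq (GRCm38.p6). Figures were drawn with matplotlib 3.10.9 in Python 3.11.15.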

Additional observations from a re-analysis of the deposited data

How the results depend on the processing

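Of the 42 genes, edgeR called 20 for FLAG-T-bet averaged over GATA3 states, 6 for T-bet + Plum versus GFP + Plum, 4 for T-bet + GATA3 versus GFP + GATA3 and 2 for T-bet + GATA3 versus GFP + Plum. DESeq2 called 26, 17, 12 and 11, against 15.7%, 8.08%, 7.83% and 6.85% of all genes, and edgeR without a filter on low counts 33, 25, 28 and 22, against 10.3%, 6.35%, 6.26% and 5.49%. With offsets for transcript length the last count was 1, against 4.21% of all genes, and in a fit of its own libraries alone 0, against 2.11%. The study's condition on size left 1, 3, 0 and 0, against 666, 446, 421 and 386 of all 14791 genes. With each library left out, the counts ran from 6 to 31, 0 to 14, 0 to 16 and 0 to 14. For HA-GATA3 averaged, 1 gene (Ccnd2) was called by DESeq2, with length offsets and without a filter, beside 0.561%, 0.0879% and 1.21% of all genes, and for HA-GATA3 alone 1 by DESeq2 and without a filter, beside 0.379% and 0.947%, against 0 in edgeR. The cause of these differences was not tested.

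The replicate numbers were not treated as pairs, because the descriptions do not tie a number to a shared day and the deviations of same-numbered libraries did not correlate above 0.1 in every pair of lines. Across genes r lay between -0.0455 and 0.302, and over the 42 genes between -0.527 and 0.671. With the replicate block the 4 FLAG-T-bet counts were 24, 12, 9 and 7, against 20.7%, 9.74%, 9.32% and 7.5% of all genes, and those for HA-GATA3 and the interaction stayed at 0.

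The median log2 FC of the 42 genes with each library left out ran from -0.86 to -0.49 for FLAG-T-bet averaged, from -1.10 to -0.25 for T-bet + GATA3 versus GFP + Plum and from -0.23 to 0.25 for HA-GATA3 alone. For FLAG-T-bet averaged, the genes that changed sign were Ccne2 (-0.33 to 0.063, with 0.063 without T-bet + GATA3 replicate 1, 0.056 without GFP + Plum replicate 2 and 0.052 without GFP + GATA3 replicate 2) and Rb1 (-0.086 to 0.042, with 0.042 without T-bet + Plum replicate 1), neither of them called. For HA-GATA3 alone, the log2 FC was below 0 for 21 of the 42 genes with all 8 libraries. It was below 0 for 35 without GFP + Plum replicate 1 and for 7 without GFP + Plum replicate 2. For T-bet + GATA3 versus GFP + Plum, this number was 38, and it was 36 to 39 with each library left out. With 2 libraries per line, one of them at 8038284 counts, 6 of the 20 genes called for FLAG-T-bet averaged were called with every library left out in turn (Ccnd2, Myc, Cdk6, Mki67, Top2a and Aurka). A fit without a library assumes that the remaining one varies like the other lines.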
